A study of Glycine max with 18 samples.

Results

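Roots of the soybean cultivar Williams 82 (W82) taken after 2 h of dehydration (W-D2) were compared with roots of well-watered plants taken at 0 h (W-C). Each group held 3 arrays, so the comparison used 6 of the 18 arrays of the series, and all 66195 probes of the array entered it. Soybean (Glycine max) is a legume crop, and W82 is the cultivar from which its reference genome was sequenced. The plants of every group were 14 d old and had grown with ample water in pots of vermiculite in a greenhouse. They were then lifted whole, washed and left to dry on paper, in a cooler room and in weaker light than in the greenhouse. The root RNA of each biological replicate was hybridised to its own Affymetrix array. Also used were 3 further groups to place the comparison, with 3 arrays each: W82 after 10 h (W-D10), and the cultivar DT2008, which the labels describe as the more drought-tolerant of the pair, well watered at 0 h (DT-C) and after 2 h (DT-D2). The plants carried no transgene or mutation named in the labels. The well-watered roots were sampled at 0 h only. Dehydration, lifting and washing, cooler and dimmer conditions and the hours of the day that passed cannot be told apart in any of these comparisons.

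A root that loses water gathers the hormone abscisic acid (ABA). ABA binds receptors of the PYR/PYL family, which then block type 2C protein phosphatases and so free SnRK2 kinases to act on bZIP transcription factors. Transcription factors of the NAC, AP2/ERF, WRKY, MYB and bZIP families respond at different times, and cells build up protectants such as galactinol-derived sugars and dehydrins. Low-oxygen genes are best known from waterlogged roots, and many root transcripts follow the circadian clock.

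The values are log2 levels with each probe set relative to its own median over the 18 arrays, so a level of 0 marks that median and levels cannot be compared between genes. For the same reason the level of root-defining genes could not be used to check the tissue. Genes that mark other tissues were read through their changes: 2 of 12 photosynthesis genes were upregulated at 2 h and none was downregulated, with a median log2 change of 0.16 over the list. The LHCB5 match among them, Glyma.05G149400, lost its call without any of 5 arrays (adjusted p = 0.0653 to 0.103). Of 13 probes for nodule genes only ENOD93, an early nodulin, was called, and it fell by 1.71 on the log2 scale. Between arrays of a group, the correlation of these relative values over all probes was 0.671 to 0.721 in W-C and 0.522 to 0.607 in W-D2. It was 0.381 to 0.453 between replicate 1 of DT-D2 and the other arrays of that group, against 0.684 between those other arrays.

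With limma, fitted over all 18 arrays, 1212 probes (1.83%) were upregulated and 585 (0.884%) were downregulated in W-D2/W-C by at least 2-fold with a Benjamini-Hochberg adjusted p under 0.05, the rule for every call below. The median change of called probes was 1.33 on the log2 scale upward and -1.29 downward, while the median over all probes was -0.02. A change of 8-fold or more was seen for 29 probes (0.0438%) upward and 27 (0.0408%) downward. All 3 W-D2 values lay above all 3 W-C values for 13.5% of probes and below them for 14.2%, and the groups overlapped for 8 of the upregulated and 8 of the downregulated probes. Only 5833 probes could be paired with exactly 1 gene, and of these 410 were upregulated and 116 downregulated. The genes described here come mostly from probes that the study's own tables of changed genes list: 131 of the 145 called probes named by the fixed rule are in those tables, and 60 were chosen there on this very comparison. Counts in the gene lists below are therefore no independent evidence of a direction. Of 4419 single-gene probes outside those tables, 55 (1.24%) were upregulated and 31 (0.702%) downregulated.

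Most of the genes matching Arabidopsis genes that low oxygen induces were downregulated in W82 roots at 2 h. Of the 16 members measured, 14 were downregulated, none was upregulated, and the median log2 change was -2.98. All 16 are in the study's tables, 10 of them chosen there on W-D2/W-C. The median level over the 16 genes was 2.38, 2.18 and 2.11 in the 3 W-C arrays and -0.52, -0.73 and -0.42 in the 3 W-D2 arrays, so the arrays of the groups stood well apart. The count stayed between 14 and 15 when each array was left out in turn.

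Within this list, the largest decrease belonged to Glyma.06G302900, a match of AT4G10265, which the annotation calls a wound-responsive family protein and which low oxygen induces in Arabidopsis. Its level was 3.04, 2.74 and 2.90 in the W-C arrays and -1.02, -1.42 and -1.48 in the W-D2 arrays, a log2 change of -4.20 ± 0.24 (SE, n = 3 per group, limma adjusted p = 4.75e-09), or 18.4-fold lower. Its neighbour by gene number, Glyma.06G303000, fell by 2.64. Another 6 genes match AT4G10265 and 1 matches the related AT4G10270. Among them Glyma.06G297600 fell by 3.80, Glyma.13G282400 fell by 3.74, Glyma.13G301400 fell by 3.57 and Glyma.13G301700 fell by 3.04. The 2 members of the whole list that were not called both belong to this family: Glyma.06G297800 changed by -0.98 (adjusted p = 0.000282), just short of 2-fold, and Glyma.12G200700 by 0.07 (adjusted p = 0.939). Genes of this family lie close together and resemble each other, so a probe may read transcript from more than 1 of them.

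Other members of the list fell with them, among them genes for DNA-binding factors. Glyma.13G149700 and Glyma.19G190000, matches of genes for the DNA-binding factors AT1G76870 and AT3G10040, were at 3.21, 2.73 and 2.75 and at 3.09, 2.14 and 1.74 in W-C. In W-D2 they were at -0.82, -0.99 and -1.26 and at -0.52, -0.25 and -0.36, and their log2 changes were -3.92 ± 0.22 and -2.70 ± 0.25 (SE). The array names both of these genes SHOOT2, and another probe of that symbol, with no gene model paired, went from 4.72, 3.59 and 3.62 to -0.12, -0.55 and -0.43, a change of -4.34. AT3G10040 is the Arabidopsis gene HRA1, which restrains the low-oxygen response. Glyma.08G365100, a match of the LOB-domain factor gene LBD41, fell from a mean level of 2.10 ± 0.14 to -1.16 ± 0.07 (SD, n = 3). The 3 matches of AT5G39890, a plant cysteine oxidase gene in Arabidopsis whose enzyme marks low-oxygen factors for breakdown while oxygen is present, fell as well, with log2 changes of -3.16 (Glyma.16G037600), -2.92 (Glyma.13G064300) and -1.80 (Glyma.18G256400).

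**Figure D1:**
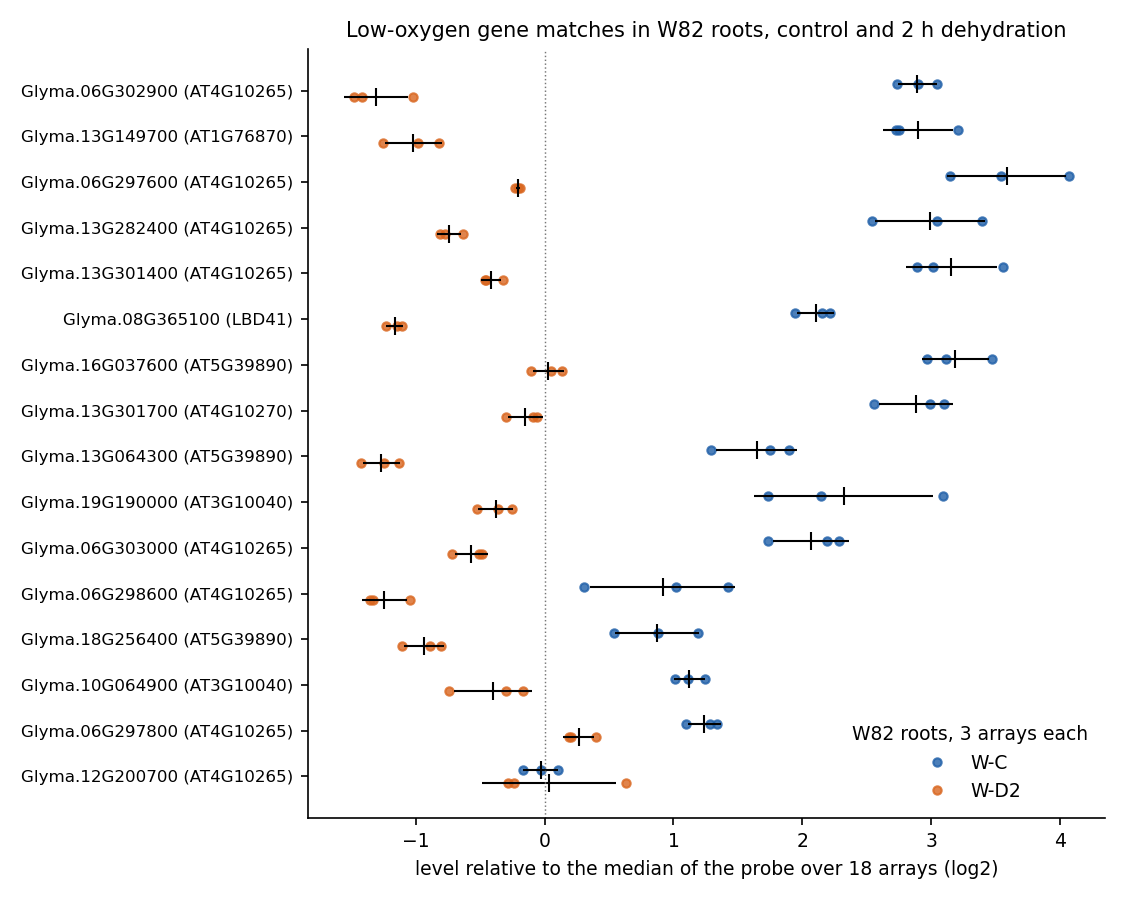
Level of the 16 low-oxygen gene matches in the 3 W-C arrays (blue) and 3 W-D2 arrays (orange) of W82 roots, in log2 relative to the median of each probe over 18 arrays, with each group's mean and SD in black. In 14 of the 16 genes the change was called and all 3 W-D2 points lie left of the 3 W-C points.

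Large decreases outside this list were of mixed function. Glyma.01G131100, a match of ASP1, a mitochondrial aspartate aminotransferase, was at 5.25, 4.14 and 3.11 in W-C and at -0.61, -0.60 and -0.81 in W-D2. Its log2 change of -4.84 ± 0.39 (SE, adjusted p = 2.35e-07) exceeded that of every member of the low-oxygen list. Its W-C arrays were spread (SD 1.07), yet each stood above every W-D2 array. Glyma.08G254400, a match of the transcription factor gene bZIP42, fell from 3.39, 2.56 and 2.46 to -0.85, -0.19 and -0.71, a change of -3.39 ± 0.21 (SE, adjusted p = 9.92e-09). Glyma.11G123400, which has no Arabidopsis match in the tables used, fell by 3.67, but its W-C arrays ran from 4.02 down to 0.95. A further uncharacterised gene, Glyma.11G060500, fell by 2.98.

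The largest increases joined secondary metabolism, a dehydrin, transport and the clock. Glyma.20G213800 matches AT4G35160, an O-methyltransferase gene of Arabidopsis, and rose from -4.07, -3.93 and -3.56 to 0.07, -0.15 and 0.36, a log2 change of 3.94 ± 0.19 (SE, n = 3 per group, limma adjusted p = 1.06e-09). Glyma.16G038000, a match of a dehydrin gene, went from -4.86, -3.84 and -3.98 to -0.36, -0.68 and -0.50, that is 13.1-fold higher. Dehydrins are hydrophilic proteins that protect membranes and enzymes as cells dry. Glyma.13G222000, a match of the ABC transporter gene PGP9, was tight in both groups, at -3.86, -3.83 and -3.81 in W-C and -0.05, -0.46 and -0.26 in W-D2. In each of these genes all the W-D2 arrays lay more than 3 log2 units above all the W-C arrays.

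The other 11 of the 15 largest increases, apart from the clock gene COR27 described below, were rises of 2.76 to 2.96 on the log2 scale. They include Glyma.10G009000, a pectin methylesterase or invertase inhibitor-type gene (2.96 ± 0.18, SE), Glyma.10G119400, a subtilisin-like protease (2.90 ± 0.29), Glyma.17G073400, a match of the early nodulin-like gene ENODL15 (2.90 ± 0.20), and Glyma.10G009400, a match of the peroxidase gene RCI3 (2.83 ± 0.29). Glyma.01G134600, a match of HPT1, whose enzyme commits homogentisate to vitamin E, rose from -0.27, -0.32 and -0.12 to 2.53, 2.42 and 2.77. Glyma.13G068800, a match of CYP82C4, whose enzyme makes an iron-binding coumarin in Arabidopsis, rose from -2.16, -2.41 and -2.53 to 0.61, 0.34 and 0.55. The groups did not overlap in any of the 15, which the rule for choosing them required.

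**Figure D2:**
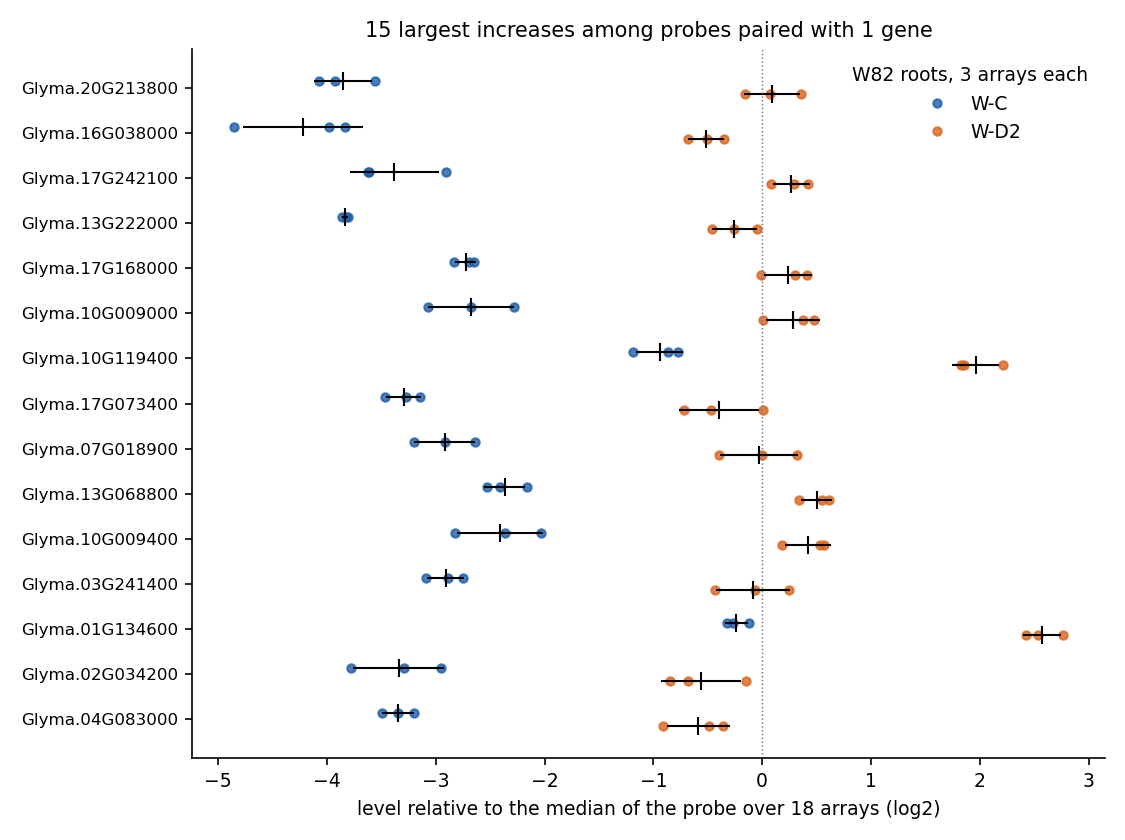
Level of the 15 genes that rose most between W-C and W-D2, in log2 relative to the median of each probe over 18 arrays, for the 3 W-C arrays (blue) and the 3 W-D2 arrays (orange), with mean and SD in black. The genes were chosen for this difference, and the changes run from 2.76 to 3.94.

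Some clock and light-signalling genes moved early in W82. Of 15 matches 6 were upregulated and 1 was downregulated, with a median log2 change of 0.56, and 14 of the 15 are in the study's tables. Glyma.17G242100, a match of COR27, a cold-induced regulator tied to the clock in Arabidopsis, rose from -2.91, -3.62 and -3.61 to 0.30, 0.08 and 0.42, a change of 3.65 ± 0.21 (SE, adjusted p = 4.75e-09). The second COR27 match, Glyma.14G083000, rose by 1.89. Glyma.16G163200, a match of GIGANTEA, which links the clock to flowering, rose from -2.23, -2.55 and -2.46 to -0.05, -0.01 and 0.09. The evening-side genes thus sat low in the 3 well-watered arrays and near their series median at 2 h.

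A pair of matches of PRR5, a clock repressor that acts on the morning genes, rose by almost the same amount, Glyma.04G228300 by 1.85 ± 0.12 and Glyma.06G136600 by 1.87 ± 0.14 (SE). The other match, Glyma.16G018000, was not called (-0.65, adjusted p = 0.103). Glyma.14G216500, a match of the B-box factor gene STH2 of light signalling, rose by 1.47. A probe named FKF1 by the array, after the blue-light receptor of the photoperiod pathway, rose by 1.35. It was the only probe called of 7 clock probes named by array symbol, all outside the study's tables. The other 6 were not called, and the median over the 7 was 0.14. In the opposite direction, Glyma.07G048500, a match of the morning gene LHY, went from 1.32, 1.24 and 1.17 to 0.19, 0.41 and 0.09. Its change of -1.02 passed 2-fold narrowly and was under it without W-C replicate 1 (-0.98), W-D2 replicate 1 (-0.996) or W-D2 replicate 3 (-0.95).

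In ABA metabolism and transport 2 of 7 matches rose and 1 fell, and all 7 are in the study's tables. The gene that fell, Glyma.01G153300, matches CYP707A1, the 8'-hydroxylase that breaks down ABA. It was at 1.35, 1.20 and 0.86 in W-C and at -1.78, -2.01 and -1.55 in W-D2, a change of -2.92 ± 0.22 (SE, adjusted p = 1.02e-07) or 7.55-fold lower. Glyma.10G217300, a match of the ABA exporter gene ABCG25, rose from -1.52, -1.44 and -1.44 to -0.25, -0.24 and -0.31. Glyma.02G022200, a match of NTL1, a transporter that carries nitrate and also ABA in Arabidopsis, rose by 1.12, though not by 2-fold without W-C replicate 2 (0.94) or W-D2 replicate 3 (0.95). The other ABCG25 match, Glyma.20G174800, changed by 0.67, the other NTL1 match, Glyma.01G042100, by 0.79, and the matches of the ABA importer gene ABCG40, Glyma.03G168000 and Glyma.19G169400, by 0.81 and -0.64.

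Among 15 ABA signalling genes, 14 of them in the study's tables, 1 rose and 2 fell at 2 h, and the median log2 change was 0.11. Over all probes 1.83% were upregulated and 0.884% downregulated. The gene that rose was Glyma.14G066400, a match of the phosphatase gene PP2CA, from -1.18, -1.09 and -1.08 to 0.06, 0.07 and -0.02. The genes that fell were Glyma.14G056300, a match of the receptor gene PYL5, from 1.05, 1.26 and 1.04 to -0.09, 0.00 and -0.15, and Glyma.04G205400, a match of the kinase gene SnRK2.4, which fell by 1.02. Without W-D2 replicate 3 the latter change was -0.93, and without W-C replicate 2 it was -0.99. The remaining 12 genes, which include further receptors, phosphatases of the ABI1 and HAI type and the bZIP factor ABF1, changed by -0.86 to 0.64.

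Galactinol synthases, which start the raffinose family of protective sugars, rose together with a dehydrin. Of 10 galactinol, raffinose and LEA-type genes 4 were upregulated and none fell, with a median of 0.75. All 10 are in the study's tables. The 2 strongest synthases were Glyma.20G094500, a match of GolS1, which rose from -2.69, -2.80 and -2.54 to 0.01, -0.02 and 0.04 (change 2.69 ± 0.18, SE, adjusted p = 2.22e-08), and Glyma.19G227800, a match of GolS2, from -3.06, -3.68 and -2.92 to -0.87, -1.08 and -0.80. Glyma.10G145300, also a GolS1 match, rose by 1.16. The fourth was the dehydrin Glyma.16G038000 given above, with the largest rise of the list (3.71). Raffinose synthase SIP1 (Glyma.05G003900) was at a change of 0.10 and the LEA gene Glyma.13G363300 at 0.09, neither called.

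Other hormone pathways showed single genes rather than whole pathways. In the study's tables are 5 of the 6 ethylene genes, all 17 jasmonate genes, all 5 gibberellin 2-oxidases and 15 of the 25 auxin-response genes. For ethylene, which is made from methionine through ACC, 1 of 6 genes rose and 1 fell. The ACC synthase match Glyma.07G128000 (ACS7) rose from -1.65, -1.17 and -1.34 to 1.04, 1.29 and 0.83, while the ACC oxidase match Glyma.07G129000 (ACO1) fell from 2.00, 1.85 and 1.30 to -0.76, -0.39 and -0.83. For jasmonate, 2 of 17 genes rose and 1 fell. The lipoxygenase matches Glyma.13G030300 (LOX2) and Glyma.19G263300 (LOX4) rose by 1.74 and 1.57, and the allene oxide cyclase match Glyma.08G256600 (AOC4) fell from 2.30, 2.28 and 1.495 to 0.09, 0.61 and 0.22.

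Of 5 gibberellin 2-oxidases, which inactivate gibberellins, only Glyma.13G218200, a match of GA2ox2, was called, from -1.29, -1.36 and -1.53 to 0.24, 0.66 and 0.79. Of 25 auxin-response genes 1 rose and 2 fell. The SAUR-type genes Glyma.18G300900 and Glyma.09G219000 fell (log2 changes -2.01 and -1.57), and Glyma.17G165300, a match of the auxin-conjugating GH3.2, rose by 1.01, which was under 2-fold without W-C replicate 1 (0.93), W-D2 replicate 2 (0.97) or W-D2 replicate 3 (0.98).

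Among nutrient and water transporters, 2 genes of high-affinity nitrate uptake fell. Glyma.12G078900, a match of the nitrate transporter gene NRT2.4, went from 2.91, 2.62 and 2.64 to 0.48, 0.97 and 0.73, and Glyma.17G124900, a match of its partner gene NRT3.1, from 1.25, 1.28 and 1.20 to -0.07, 0.03 and -0.02. With NTL1 above, 1 of 7 nitrate transport genes rose and 2 fell. Of these 7, 6 are in the study's tables, as are all 6 aquaporins measured. Of 6 aquaporins only Glyma.05G162600, a match of NIP1;2, was called, and it rose from -1.27, -0.82 and -1.002 to 0.64, 0.93 and 0.73. The 3 matches of the vacuolar water channel TIP1;3 changed by -0.06 (Glyma.15G041200), 0.46 (Glyma.11G143100) and 0.77 (Glyma.13G333100) without a call.

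Phenylpropanoid and flavonoid genes were upregulated along the pathway, 7 of 13 with none downregulated and a median of 1.04. Of the 13, 11 are in the study's tables. Phenylalanine ammonia-lyase, which opens the pathway, had 2 neighbouring matches of PAL1. Glyma.03G181600 rose from -1.54, -1.40 and -1.46 to -0.04, 0.19 and 0.41 and Glyma.03G181700 from -0.40, -0.57 and -0.46 to 1.14, 0.98 and 1.20. Chalcone synthase, which leads into the flavonoids, rose by 1.17 (Glyma.08G109200) and 1.04 (Glyma.08G109400). Glyma.06G202300, a match of the flavonoid 3'-hydroxylase gene TT7, rose by 1.67. The O-methyltransferase matches were Glyma.06G286200 (1.39) and the leading gene Glyma.20G213800. The neighbouring copies are alike, so each pair may share signal. Among 29 flavonoid probes named by array symbol, 25 of them outside the study's tables, 1 was upregulated, none was downregulated, and the median was 0.27. The upregulated probe was not among the 25, whose median was 0.22.

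Cytochrome P450 genes, which hydroxylate many hormones and defence compounds, had 9 of 26 members up and only CYP707A1 down. Over all probes 1.83% were upregulated and 0.884% downregulated. Of the 26, 25 are in the study's tables, 7 of them chosen there on W-D2/W-C, and the 1 outside was not called. The 3 matches of CYP82C4 called all rose: Glyma.13G068800 by 2.87, Glyma.19G014600 by 2.33 and Glyma.13G285300 by 1.69. The neighbouring CYP71B34 matches Glyma.11G062500 and Glyma.11G062600 rose by 2.29 and 1.86. Of 21 class III peroxidases, which use hydrogen peroxide at the wall, 7 rose and 2 fell, and 20 of the 21 are in the study's tables. Matches of the same Arabidopsis gene went both ways. Of AT5G05340, Glyma.09G277800 rose by 1.40 and Glyma.14G053700 fell by 1.20. Of RCI3, Glyma.10G009400 rose by 2.83 while Glyma.02G151700 fell by 1.49. Of 9 glutathione S-transferases paired by gene model, Glyma.15G251700 (GSTU19) was the only member called, at 1.10.

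Cell wall genes were split, with 5 of 35 up and 7 down, against 1.83% and 0.884% of all probes. Of the 35, 25 are in the study's tables, and none of the 10 outside was called. Among those that fell were expansins, which loosen walls during growth. Glyma.01G214400, a match of EXPA7 of root hairs, went from 2.19, 1.56 and 1.88 to 0.69, 0.13 and -0.05, and Glyma.19G222900, a match of EXPA17, fell by 1.76. A pair of genes of the pectin methylesterase or invertase inhibitor type, Glyma.12G004600 and Glyma.09G033700, fell (log2 changes -2.26 and -1.92). Among those that rose, the expansin-like match Glyma.17G151700 (EXLB1) was uneven between replicates, from -1.61, -1.85 and -2.13 in W-C to -0.33, -0.34 and 1.28 in W-D2, and the polygalacturonase match Glyma.15G275400 (QRT2) rose by 1.65.

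Receptor-like kinases, which sense signals at the cell surface, had 8 of 32 members up and 1 down, against 1.83% and 0.884% of all probes. Of the 32, 22 are in the study's tables, and 1 of the 10 outside rose. Glyma.09G003100 (RLK1) rose by 2.13, Glyma.10G253100 (CRK26) by 2.00 and the wall-associated kinase Glyma.14G158600 (WAK5) by 1.89, whereas Glyma.11G206400 (CRK2) fell by 1.10. Of 18 calcium sensors, 17 of them in the study's tables, 7 rose and 2 fell, and after quantile normalization 3 rose. The EF-hand genes Glyma.18G260700 and Glyma.06G258000 rose by 2.00 and 1.78, and the CBL-interacting kinase match Glyma.13G228400 (CIPK12) by 1.29. The calcium-binding phosphatase-type genes Glyma.04G226800 and Glyma.16G016300 went opposite ways, the first up by 1.87 and the second down from 1.38, 1.14 and 0.96 to -0.91, -0.86 and -0.75.

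NAC transcription factors were upregulated in 9 of 17 cases with none downregulated and a median of 1.18. All 17 are in the study's tables, 2 of them chosen there on W-D2/W-C. The strongest were Glyma.20G033300, a match of the senescence regulator NAP, from -1.63, -2.16 and -2.29 to 0.26, -0.02 and 1.01, and Glyma.02G070000, a match of NAC047, from -0.98, -0.95 and -1.28 to 1.04, 0.69 and 1.23. Both matches of RD26, a NAC factor that ABA and drought induce, rose. Glyma.06G248900 went from -1.78, -1.94 and -1.85 to -0.09, -0.32 and -0.21, and Glyma.12G149100 from -2.81, -2.29 and -1.55 to -1.01, -0.81 and -0.39. The matches of NAC071, Glyma.05G113000 and Glyma.17G154100, rose by 1.89 and 1.91. Of the 19 probes named as NAC by the array's symbols, 13 of which are outside the study's tables, 6 rose and none fell. Of the risers only 2 were among the 13 outside the tables, whose median was 0.22. Among the 19 the probe NAC11 rose most, by 2.50.

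WRKY factors, tied to defence and stress signalling, were read mostly through probes outside the study's tables, 56 of 66. Of the 66, 8 rose and none fell, 3 of the risers among the 56 outside the tables, and the median was 0.24 over the 66 and 0.20 over the 56. The largest increase was in Glyma.04G223300, a match of WRKY70, from -0.20, -0.24 and -0.19 to 1.49, 1.91 and 1.82. The 2 matches of WRKY33, Glyma.18G056600 and Glyma.18G208800, rose by 1.39 and 1.43, and the probes WRKY5 and WRKY53 by 1.73 and 1.47. The count was 5 without W-D2 replicate 3 and otherwise 7 to 10.

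AP2/ERF factors went both ways, with 11 of 31 up and 5 down, all 31 in the study's tables, and with 5 up and 8 down after quantile normalization. The largest increase was in Glyma.12G203100, which the array names DREB5 and which matches AT2G20880, from -2.84, -2.92 and -2.53 to -0.38, -0.32 and -0.35. Glyma.01G225000 rose by 1.92 and Glyma.11G014200, a match of AT1G71450, by 1.87. The largest decrease was in Glyma.19G163700, a match of AT3G23230, from 2.39, 2.42 and 1.85 to -0.65, -0.57 and -0.51. The neighbouring DREB-type genes Glyma.05G049900, a match of DDF1, and Glyma.05G049800 fell together, the first from 0.35, 0.74 and -0.20 to -2.18, -1.96 and -1.83 and the second from 0.43, 0.55 and 0.59 to -1.67, -1.54 and -1.57.

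MYB and bZIP factors were called less often than NAC or AP2/ERF factors in these lists, but the lists were not drawn alike. The study chose 0 MYB and 0 bZIP members on W-D2/W-C, against 2 NAC and 5 AP2/ERF members. Probes named by array symbol and outside its tables did not show this order. Of 9 MYB probes 1 rose and 1 fell, of 13 NAC probes 2 rose, of 8 AP2/ERF probes 1 fell, and of 11 bZIP probes 0 were called. Of 28 MYB-type genes 1 rose and 1 fell, the latter LHY, and of 11 bZIP genes 1 rose and 1 fell, the latter bZIP42. All 28 and all 11 are in the study's tables, and over all probes 1.83% were upregulated and 0.884% downregulated. Heat shock factors rose in a small way: of 27 heat shock and chaperone genes 6 rose, every one of them a factor and not a chaperone, and 1 fell. Of the 27, 21 are in the study's tables, and none of the 6 outside was called. The 2 HSFA4A matches Glyma.13G225700 and Glyma.15G086400 rose by 1.15 and 1.04, the HSFB3 match Glyma.19G137800 by 1.02, and the DnaJ-type chaperone Glyma.07G043100 fell by 1.32. None of 6 ribosomal protein probes and none of 30 probes named for seed maturation was called by limma, with median changes of 0.02 and 0.00.

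**Figure D3:**
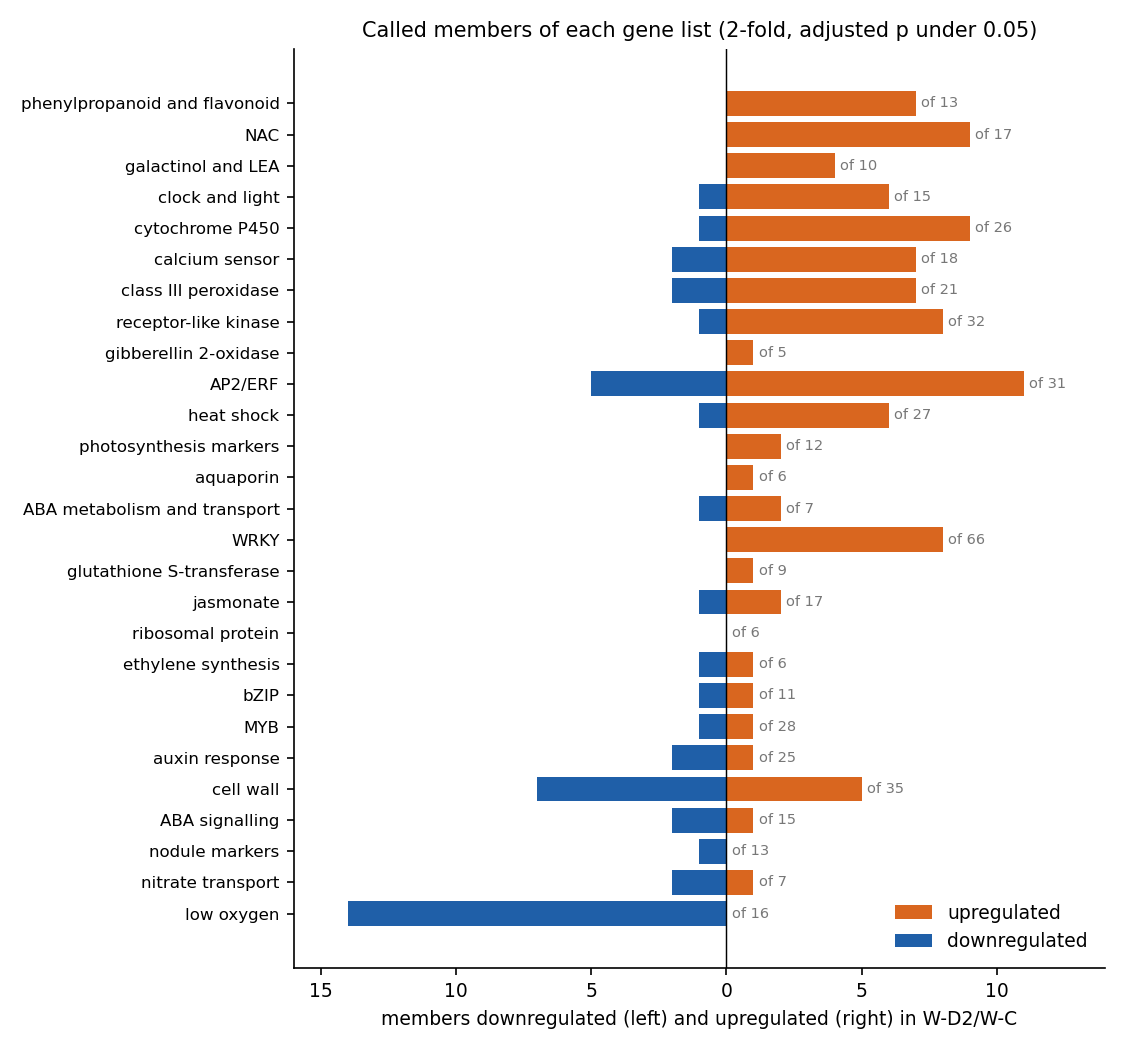
Number of members of each gene list that were downregulated (blue, to the left) or upregulated (orange, to the right) in W-D2/W-C, with the number of members measured beside each bar. The low-oxygen list is the only list with more than 8 members downregulated, and the lists of NAC and AP2/ERF factors hold 9 and 11 upregulated members.

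The same 2 h of dehydration was compared in DT2008, whose arrays are separate from those of W82. There 1911 probes (2.89%) were upregulated and 785 (1.19%) downregulated. The probes upregulated in both cultivars numbered 783, which is 64.6% of the W82 list and 41.0% of the DT2008 list. Those downregulated in both numbered 225, or 38.5% and 28.7%. No probe upregulated in W82 was downregulated in DT2008, and 1 probe downregulated in W82 was upregulated in DT2008. A test of the difference itself, the interaction term of the same limma fit, called 190 probes (0.287%) as more positive in DT2008 and 88 (0.133%) as more positive in W82. These counts varied with single arrays. Without DT-D2 replicate 1, the array that stood apart, they were 512 and 303, and without DT-D2 replicate 2 they were 92 and 34.

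Of the probes downregulated in W82, 48 also had a called interaction, and in 47 of them the decrease was smaller in DT2008. Of the probes upregulated in W82, 62 had one, 31 in each direction. The W82 arrays enter both calls, so a selection for large W82 changes favours smaller ones in DT2008.

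In the low-oxygen list, DT2008 had 10 of 16 members downregulated with a median of -1.26, against 14 and -2.98 in W82. The study chose 10 of the 16 members on W-D2/W-C, so the list favours the larger change in W82. The interaction was called in 5 members, each with the smaller decrease in DT2008. The median level over the list was 1.11 in DT-C, between 2.11 and 2.38 in the W-C arrays, -0.26 in DT-D2 and between -0.73 and -0.42 in the W-D2 arrays. The cultivars therefore lay further apart in well-watered roots than after 2 h, a difference in control levels that was not tested. Glyma.06G297600 shows this most sharply. It was at 3.15, 3.54 and 4.07 in W-C and -0.21, -0.19 and -0.23 in W-D2, but at 0.07 ± 0.08 in DT-C and -0.19 ± 0.17 in DT-D2 (SD, n = 3), and the change in DT2008 exceeded that in W82 by 3.54 ± 0.41 (SE, adjusted p = 0.00069). For Glyma.16G037600 the change was -1.24 in DT2008 and -3.16 in W82, with an interaction of 1.92 (adjusted p = 0.00193).

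In the clock list some members rose less in DT2008, while the median change over the list was not lower there. A difference over the list was not tested, and the study chose 5 of its 15 members on W-D2/W-C. It had 3 of 15 members up and none down in DT2008 with a median of 0.69, against 6 up, 1 down and 0.56 in W82. The interaction was called in 4 members, each with the smaller increase in DT2008. For the GIGANTEA match Glyma.16G163200 the difference was -1.17 and was not called (interaction adjusted p = 0.064). COR27 (Glyma.17G242100) rose by 1.78 ± 0.21 in DT2008 and by 3.65 ± 0.21 in W82 (SE, interaction adjusted p = 0.00668). Its mean level was -3.38 in W-C and -1.02 in DT-C, and 0.27 and 0.76 after 2 h. The PRR5 matches rose by 0.69 and 0.73 in DT2008 against 1.85 and 1.87, and STH2 by 0.04 against 1.47. After quantile normalization the interaction lost its call for COR27 (adjusted p = 0.0528), for STH2 (adjusted p = 0.0764) and, with differences of -0.93 and -0.98, for the PRR5 pair. For STH2 it was also lost without W-C replicate 1 (difference -1.32).

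Other genes with a called difference included CYP707A1, Glyma.01G153300, which changed by -2.92 in W82 and by -1.02 in DT2008, with levels of -1.78 in W-D2 and -0.12 in DT-D2 (interaction adjusted p = 0.00819). The DREB-type gene Glyma.05G049800 changed by -2.12 in W82 and by 0.04 in DT2008. The bHLH gene Glyma.06G283300 rose from -0.80, -0.995 and -0.56 to 1.76, 1.70 and 1.41 in W82, and changed by 0.14 in DT2008. Genes that rose more in DT2008 included a pair of matches of AT1G15980, a gene for a subunit of the chloroplast NADH dehydrogenase-like complex. Glyma.07G023000 rose by 1.35 ± 0.33 in W82 and by 4.67 ± 0.33 in DT2008, and Glyma.08G218800 by 1.82 and 4.09. The W82 increase of Glyma.07G023000 was not called without W-C replicate 3 (adjusted p = 0.0802) or W-D2 replicate 3 (adjusted p = 0.1). The interaction lost its call without any 1 of 7 arrays for Glyma.06G283300 (difference -2.62 to -1.90) and without any 1 of 8 for Glyma.08G218800 (2.00 to 2.79). For the latter it was also lost with the replicate number as a block (adjusted p = 0.0529). The expansin-like Glyma.17G151700 rose by 2.07 in W82 and by 4.49 in DT2008, and that difference lost its call without any 1 of 7 arrays (2.15 to 2.95).

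**Figure D4:**
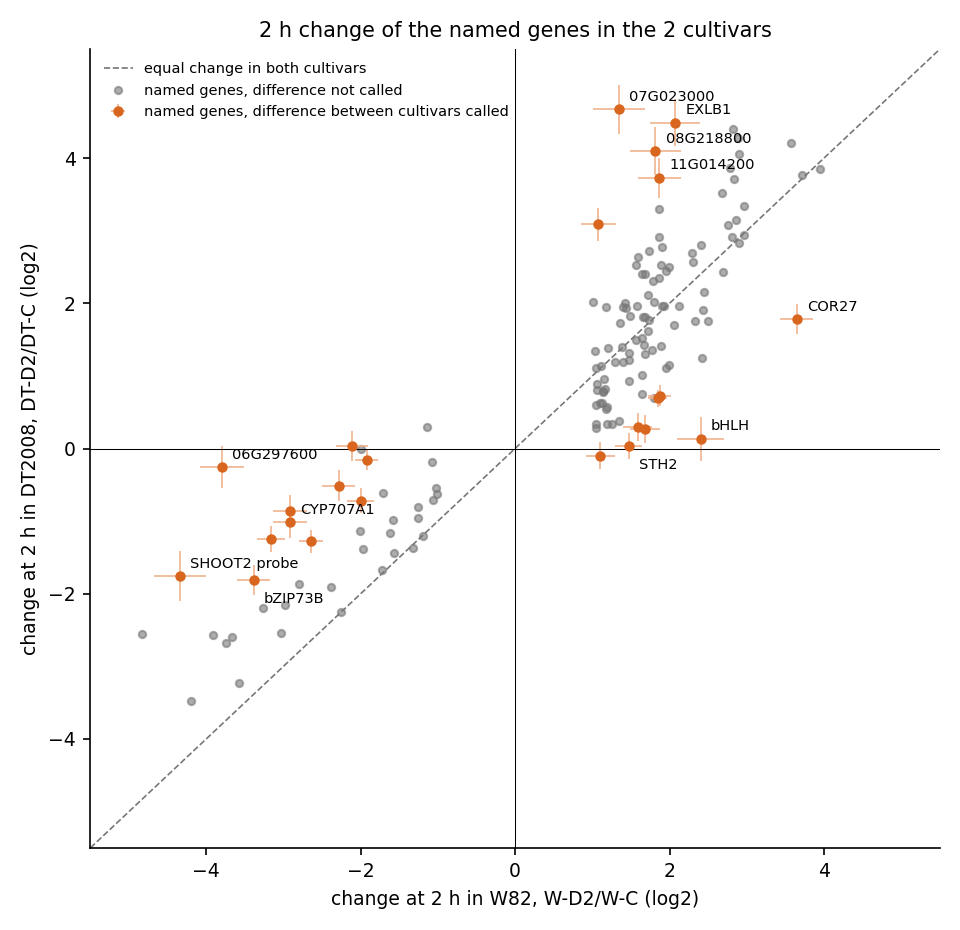
Log2 change at 2 h in W82 (horizontal) and in DT2008 (vertical) for the genes named by the rule and called in W-D2/W-C. Orange points with SE bars have a called difference between cultivars, grey points have none, and the dashed line marks equal change. Glyma.06G297600 lies at -3.80 in W82 and -0.25 in DT2008.

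The 2 h roots were set against W82 roots after 10 h (W-D10/W-D2). This comparison shares its W-D2 arrays with W-D2/W-C. It had 958 probes (1.45%) higher and 656 (0.991%) lower at 10 h. Against W-C, 2307 probes (3.49%) were upregulated and 1100 (1.66%) downregulated at 10 h.

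Protectant genes went on rising. Of the 10 galactinol, raffinose and LEA-type genes 8 were higher at 10 h than at 2 h, and 9 were above W-C at 10 h. All 10 are in the study's tables, 1 of them chosen there on W-D2/W-C, so these counts are shaped by that choice. GolS2 (Glyma.19G227800) was at -3.22 in W-C, -0.92 in W-D2 and 2.33 ± 0.28 in W-D10 (mean, SD of W-D10, n = 3), a further rise of 3.25 ± 0.27 (SE, adjusted p = 9.82e-07). GolS1 (Glyma.20G094500) rose by a further 2.05. Raffinose synthase SIP1 and the LEA gene Glyma.13G363300, which were not called at 2 h, were 2.76 and 1.15 higher at 10 h than at 2 h.

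Jasmonate and ABA genes were likewise called more often at 10 h. All 17 jasmonate and 14 of the 15 ABA signalling genes are in the study's tables, with 2 of each list chosen there on W-D2/W-C. The rest entered through its other comparisons, so the counts at the 2 times are shaped by that choice. Upregulated calls over all probes also went from 1.83% at 2 h to 3.49% at 10 h. Against W-C, 11 of 17 jasmonate genes were up at 10 h, compared with 2 at 2 h, and 8 were higher than at 2 h. The AOC4 match Glyma.08G256600, down at 2 h, was 2.47 higher at 10 h. In ABA signalling 7 of 15 genes were up and 5 down against W-C at 10 h. The phosphatase match Glyma.08G033800 (ABI1) changed by 0.46 at 2 h and was 1.20 higher at 10 h. CYP707A1 was 1.86 higher at 10 h than at 2 h and still -1.06 against W-C. The TIP1;3 aquaporin match Glyma.13G333100 was 3.64 higher at 10 h, and the RD26 match Glyma.12G149100 was 2.89 ± 0.27 higher (SE).

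A smaller set was high at 2 h and lower again at 10 h. The neighbouring F-box genes Glyma.17G011700 and Glyma.17G011800 rose by 2.69 and 1.57 at 2 h and then fell. The first was at 0.38, -0.72 and -0.55 in W-C, 2.28, 2.48 and 2.40 in W-D2 and -0.37 ± 0.42 in W-D10 (SD, n = 3). HPT1 (Glyma.01G134600) and the subtilisin-like Glyma.10G119400 changed by -2.20 and -2.17 from 2 h to 10 h. Glyma.13G252000, named PR1-1 on the array after a pathogenesis-related protein, was at 0.28 in W-D2 and -1.38 in W-D10. Most low-oxygen genes stayed below W-C: at 10 h 14 of 16 were downregulated and 1, Glyma.12G200700, was upregulated (log2 change 1.58), while 6 were higher at 10 h than at 2 h, with Glyma.06G302900 up by 1.69.

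**Figure D5:**
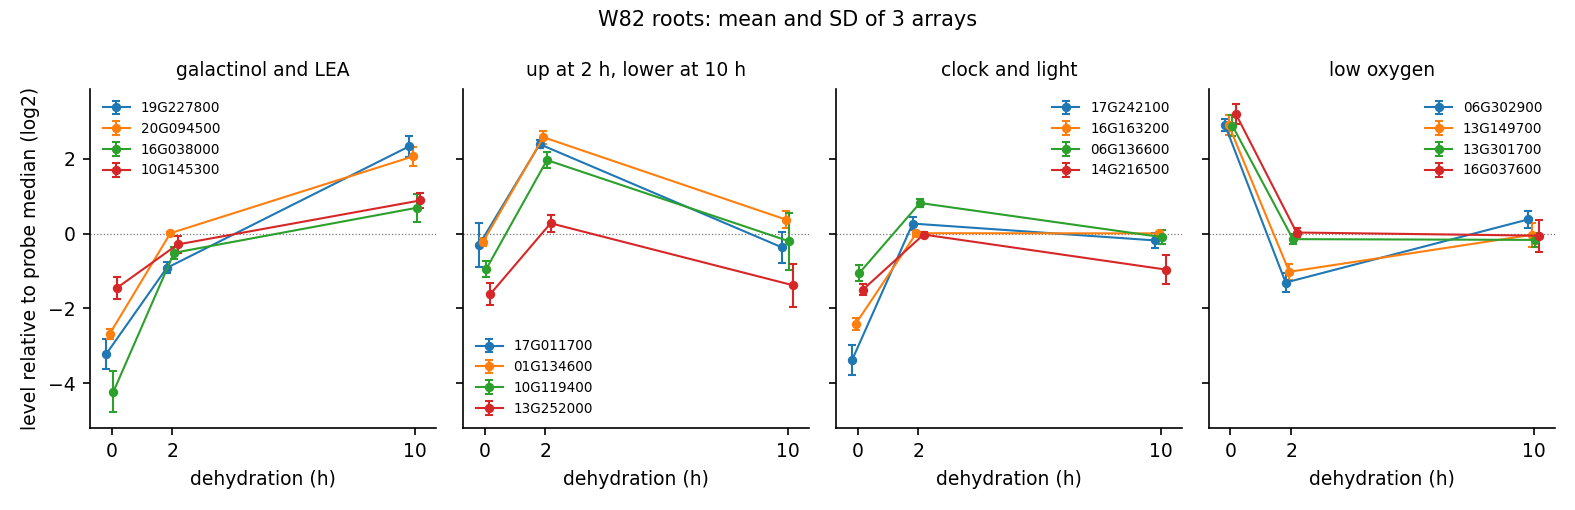
Mean level and SD (n = 3 arrays) at 0, 2 and 10 h in W82 roots for 4 genes of each of 4 kinds, in log2 relative to the median of each probe over 18 arrays. Galactinol synthases and the dehydrin climbed through 10 h, the second panel shows genes high at 2 h only, and low-oxygen genes were low at both times.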

How the data were processed

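Root RNA of 18 samples was hybridised to 18 Affymetrix soybean arrays of 66195 probes. The authors deposited log2 values made with Affymetrix Expression Console and RMA, which corrects background, normalizes by quantiles and summarises probes. Each probe was then found centred on its median over the 18 arrays, so brightness is not in the values and depth is set by the number of arrays. The study's methods used GeneSpring and a t-test. Columns of its own comparisons (fold changes and p-values) were not used, and 0 columns belonged to other samples.

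A mean per group was fitted in limma 3.58.1 (R 4.3.3) with empirical Bayes moderation (12 residual and 6.28 prior degrees of freedom). A probe was called at 2-fold or more with a Benjamini-Hochberg adjusted p under 0.05 over 66195 probes. The fit was tested on simulated data. Genes came from the array's symbols and from identifier columns of the study's tables (5877 probes annotated). Named genes were the 15 largest called increases and decreases with 1 gene and no overlap, up to 6 called members of each list by adjusted p and all members of lists of 8 or fewer, the 8 largest called cultivar differences and the 6 largest 10 h changes in each direction, the last 2 sets among genes called at 2 h. Members and lists were chosen with earlier results of these data known. Labels call the replicates independent. Alternatives were the arrays fitted, a replicate block, centring, quantile normalization, array weights, robust shrinkage, no fold threshold, probes with 1 gene, the methods' t-test and leaving out each array. Promoter motifs were not analysed here.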

Additional observations from a re-analysis of the deposited data

Results flagged for a closer look

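A difference between the cultivars in the 2 h change was called by the limma interaction term for 26 of the named genes, and each is given here as the DT2008 change minus the W82 change on the log2 scale. In 20 of them the change was smaller in size in DT2008, whatever its direction, and in 6 it was larger. Most named genes were chosen for their W82 change, which favours smaller changes in DT2008. The split is therefore no evidence of a weaker response there. Dixon's test for a single outlying array was not applied, since each group held 3 arrays.

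The change was more positive in DT2008 for 18 genes. Among the low-oxygen matches these were Glyma.06G297600 (3.54), Glyma.13G064300 (2.06), Glyma.16G037600 (1.92) and Glyma.06G303000 (1.36), together with SHOOT2 (2.59). The NADH dehydrogenase-like complex matches Glyma.07G023000 and Glyma.08G218800 differed by 3.33 and 2.28, and the expansin-like Glyma.17G151700 by 2.42. Among AP2/ERF factors were Glyma.05G049800 (2.15), Glyma.11G014200 (1.86) and Glyma.05G049900 (1.77). The ABA-degrading CYP707A1 match Glyma.01G153300 differed by 1.90, the bZIP42 match Glyma.08G254400 by 1.58 and the calcium-binding Glyma.16G016300 by 1.28. The hormone genes Glyma.01G196100, an ACC synthase, and Glyma.10G010700, a gibberellin 2-oxidase, differed by 1.24 and 1.05 without being called in W-D2/W-C. The wall gene Glyma.09G033700 differed by 1.77 and the uncharacterised Glyma.18G015800 by 2.01.

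The change was more positive in W82 for 8 genes. The 4 clock and light genes among them were Glyma.17G242100 (COR27, -1.86), Glyma.14G216500 (STH2, -1.43), Glyma.04G228300 and Glyma.06G136600 (PRR5, -1.16 and -1.14). The others were the bHLH gene Glyma.06G283300 (-2.27), the RNA-binding Glyma.13G145200 (-1.42), the HAL2-like phosphatase Glyma.15G068800 (-1.29) and the ACT-domain gene Glyma.03G184800 (-1.20).

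Of the 26 calls, 13 were lost when 1 array or another was left out, with no change of direction. Glyma.15G068800 and Glyma.03G184800 lost theirs without any 1 of 10 arrays (differences -1.48 to -1.17 and -1.34 to -1.05), and Glyma.01G196100 without any 1 of 9 (1.04 to 1.42). Glyma.08G218800 and Glyma.11G014200 lost theirs without any 1 of 8 (2.00 to 2.79 and 1.56 to 2.15), and Glyma.06G283300 and Glyma.17G151700 without any 1 of 7 (-2.62 to -1.90 and 2.15 to 2.95). For Glyma.13G145200, Glyma.10G010700 and Glyma.16G016300 it was any 1 of 6 (-1.68 to -1.23, 0.97 to 1.16 and 1.16 to 1.41). SHOOT2 lost its call without W-C replicate 1, W-D2 replicate 2, DT-C replicates 1 or 3 or DT-D2 replicate 3 (2.21 to 2.90 over all arrays left out), Glyma.08G254400 without W-D2 replicates 1 or 3, DT-C replicate 3 or DT-D2 replicate 3 (1.28 to 1.77), and Glyma.14G216500 without W-C replicate 1 (-1.32). With the replicate block 4 calls were lost, those of Glyma.08G218800, Glyma.11G014200, Glyma.15G068800 and Glyma.03G184800 (adjusted p = 0.0529, 0.0508, 0.0586 and 0.0712). Fitting only the 12 arrays compared lost 8 calls (adjusted p = 0.0547 to 0.0865), and quantile normalization lost 5.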

How the results depend on the processing

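For W-D2/W-C, direction and call held for all 145 called named genes with the replicate number as a block, with each array centred on its median, with array weights and with robust variance shrinkage. Fitting the 6 arrays alone lost 2 of them, quantile normalization 22, and leaving out 1 array in turn 19, most of them close to 2-fold. Counts were 1212 up and 585 down, 935 and 644 after quantile normalization (from 67.4% to 59.2% of calls upward), 990 to 1322 and 497 to 650 with an array left out, 3079 and 2096 with no fold threshold, and 415 and 118 when only probes paired with 1 gene were tested. The quantile normalization was run on values that RMA had already normalized and that were centred per probe. It gives each array the same spread, while the SD over probes was 0.419 to 0.458 in W-C and 0.312 to 0.363 in W-D2. Whether it removed changes between the groups was not tested. The methods' t-test gave 1188 and 578 at an unadjusted p under 0.05, but 150 and 61 after Benjamini-Hochberg adjustment, which kept 60 of the named genes. For the interaction, calls more positive in DT2008 moved from 190 to 294 after quantile normalization, 394 with array weights and 92 to 512 with an array left out. Calls more positive in W82 moved from 88 to 192 with array weights, 48 over probes with 1 gene and 34 to 303 with an array left out. For W-D10/W-D2 the counts of 958 and 656 became 2997 and 3020 with no fold threshold, 356 and 130 over probes with 1 gene, 50 and 12 by the methods' t-test, and 902 to 1006 and 572 to 847 with an array left out. Apart from the fold threshold and the smaller number of probes tested, the cause was not tested.

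The replicate numbers were not treated as a pairing in the main fit. Same-numbered W-C and W-D2 arrays had correlations of deviations of 0.064, 0.049 and -0.034, and other-numbered arrays -0.092 to 0.045. With 3 arrays per group these values cannot settle whether same-numbered arrays belong together. The block ended 4 of the 26 named interaction calls and no call of a named gene in W-D2/W-C or W-D10/W-D2. With the replicate block the counts were 1211 and 580 for W-D2/W-C, 172 and 64 for the interaction, and 954 and 658 for W-D10/W-D2. Among uncalled genes the sign changed in Glyma.15G041200 (-0.055, and -0.164 to 0.115 with an array left out) and Glyma.18G260000 (-0.128, and -0.294 to 0.035). The number of arrays, 3 per group, limits the precision, and brightness over background could not be read from the relative values.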

Other observations

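Probes with no gene paired held 801 of the upregulated and 468 of the downregulated calls, and the single largest changes. Probe 11783469 rose from -5.62, -6.43 and -6.42 in W-C to -0.34, -0.79 and -0.35 in W-D2, a log2 change of 5.66, and changed by 5.06 in DT2008. Probe 12069496 fell from 3.72, 4.19 and 5.11 to -1.11, -0.87 and -0.12, a change of -5.04. Probe 11823277 was called on 2 arrays only: it was at 7.33, 0.22 and 7.53 in W-D2, against -0.01 to 0.17 in W-C (change 4.95 ± 1.13, SE, adjusted p = 0.00976). These probes were chosen after their values were seen.

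Of 857 pairs of neighbouring gene models, with gene numbers at most 200 apart, 50 matched the same Arabidopsis gene. In these 50 pairs both copies were upregulated in 7 and both downregulated in 1, only 1 copy was called in 17, neither in 25, and in none were the copies called in opposite directions. Of all 857 neighbouring pairs, 20 were both upregulated, 2 both downregulated and 2 opposite. The gene models were those that the study's tables give, many of them in its tables of changed genes. The counts of called copies are therefore shaped by that choice. Signal shared between near-identical copies was not tested.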
